A study of Mus musculus with 12 samples.

Results

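TRAJ7 is 1 of the joining segments of the mouse T cell receptor alpha (TRA) locus, and the alpha chains that use it were followed through all 12 libraries of the series. Members were the rows of the deposited TRA table whose J segment, without its allele, is TRAJ7. They were 561 of 10521 TRA rows (5.33%) and held 47386 of 731688 TRA reads (6.48%). T cell receptor transcripts had been sequenced from sorted CD8+ cells positive for an Rpl18 tetramer, a reagent that marks T cells by the peptide they recognise. Cells were taken on day 10 after injection of MC38, a mouse colon carcinoma cell line. There were 4 groups of 3 libraries. KO tumor and KO TDLN cells came from mice whose TrIP knockout was specific to CD8 cells, and WT tumor and WT TDLN cells came from WT mice, where TDLN is the tumor-draining lymph node. All 4 groups carried the tumor, so none is a tumor-free control. TrIP is a transmembrane protein known to restrain PI3 kinase signalling in T cells. The sources used here give neither the age of the mice nor the Cre line. The knockout and the CD8 identity of the cells were not checked, since no expression values were analysed.

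An alpha chain is made when a V segment is joined to a J segment in the thymus. Bases are trimmed from and added to the joint, and the loop that results, the CDR3, lies over the peptide when the receptor binds. Its first residues come from the V segment, its last from the J segment, and the few between them from the joint. Cells that descend from 1 T cell carry the same rearrangement, so a rearrangement with many reads can mark an expanded clone. In the mouse table of GRCm38.p6, Traj7 lies on chromosome 14, between Traj6 and Traj8, as the 7th of 60 Traj genes counted from Trac, the gene of the constant region.

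The reading frame decides which TRAJ7 rows count as receptors. The deposited CDR3 of most TRAJ7 rows was taken to end 1 base before the end of a codon. No germline TRAJ7 sequence was used here, so the missing base and the residue it completes were not set against the segment itself. Rows whose length left a remainder of 2 after division by 3, with no stop codon, were therefore counted as productive, that is, able to encode a chain. Their whole codons were translated and a final leucine (L) was added. This rule was set with the values known, and the shares and counts that rest on it are given as a description with no test. Under it, 474 rows with 44768 reads were productive, which was 7.18% of all 623850 productive TRA reads. Under the frame as deposited, 38 other rows with 1811 reads were productive.

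A clonotype was defined by its CDR3 nucleotides, its V and its J, and duplicated copies of a V gene were pooled under 1 name. The productive rows held 381 different TRAJ7 clonotypes of 6563 TRA clonotypes. After clonotypes 1 base from one at least 100 times larger in the same library were set aside, 166 TRAJ7 clonotypes were left. The sequences below carry most of the reads described here. They are printed 5′ to 3′ as the TRA table has them, and the 22 bases in capitals are the shared TRAJ7 end.
Clone 1 (TRAV6-7): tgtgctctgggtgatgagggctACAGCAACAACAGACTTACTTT
Clone 2 (TRAV7-4): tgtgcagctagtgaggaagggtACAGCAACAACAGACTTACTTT
Clone 3 (TRAV7-4): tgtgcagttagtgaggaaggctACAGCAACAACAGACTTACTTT
Clone 12 (TRAV7-4): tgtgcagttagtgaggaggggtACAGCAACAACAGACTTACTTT
Clone 4 (TRAV6-7): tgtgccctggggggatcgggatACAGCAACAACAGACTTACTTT
Clone 5 (TRAV6-6): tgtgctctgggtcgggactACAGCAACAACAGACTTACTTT
Clone 6 (TRAV5-1): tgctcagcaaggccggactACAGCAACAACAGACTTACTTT
Clone 8 (TRAV14-3): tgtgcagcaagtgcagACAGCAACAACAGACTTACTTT
Other frame (TRAV3-3): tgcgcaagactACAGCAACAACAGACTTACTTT

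The capitals show why the frame matters. Read in the frame of the rule, this end encodes SNNRLT and the restored L. Read in the other frame, as in the last sequence, it encodes QQQQTYF. The tail, each base of which was shared by at least 95% of TRAJ7 clonotypes, ended 61.9% of TRAJ7 rows and 99.4% of TRAJ7 reads. The letters before it differ from clone to clone, but not at every position. The 23rd base from the end was T in 89.2% of TRAJ7 clonotypes and the 26th was G in 95.5%.

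Libraries are named by group and by the number in the labels. Each library name also carries a letter that 1 tumor and 1 TDLN library share; the sources used here do not say whether a letter marks a mouse. Assembled reads ranged over 106344 to 654080 per library and productive TRA reads over 15828 (lowest, WT TDLN 4) to 94872 (highest, WT tumor 2), the median being 48625.5. The run log notes 4 runs as timed out, all from TDLN. No molecular identifiers are described, so counts are reads, and all intervals cover counting error only. The labels do not say that libraries of a group came from separate mice, so p-values measure the spread between these libraries. Some libraries shared clonotypes across letters. KO tumor 3 and WT TDLN 3 shared 24 TRAJ7 clonotypes and 60 clonotypes of other TRAJ segments, and WT tumor 4 and WT TDLN 1 shared 10 and 75. KO tumor 2 and KO tumor 3, libraries of the same group, shared 3 and 107, and WT tumor 3 and KO TDLN 3 shared 0 and 70. The KO tumor libraries were thus not wholly separate in their clonotypes. Shares, leading V families and the main motif before the shared end are therefore also given without clonotypes found under more than 1 letter. Their 1-base variants under a single letter were not left out, so traces of a large shared clone can stay in these values.

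TRAJ7 stood apart from the other segments in the lengths of its rows, and this is the measure the rule used. Of the 561 rows, 495 (88.2%) had a remainder of 2, 10 had a remainder of 1, and 56 (9.98%) had a remainder of 0. By reads, the share with a remainder of 2 was 94.6%. In rows of other TRAJ segments the remainder was 2 in 11.1%, 1 in 9.82% and 0 in 79.1%. Of 37 segments with at least 50 rows, 4 had a commonest remainder other than 0. Beside TRAJ7 these were TRAJ21, with a remainder of 2 in 50.3% of rows, TRAJ34, with a remainder of 1 in 44.6%, and TRAJ40, with a remainder of 1 in 47.8%. As deposited, 90.02% of TRAJ7 rows and 94.7% of TRAJ7 reads were called out of frame, against 20.9% of rows and 15.1% of reads of other TRAJ segments.

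**Figure D1:**
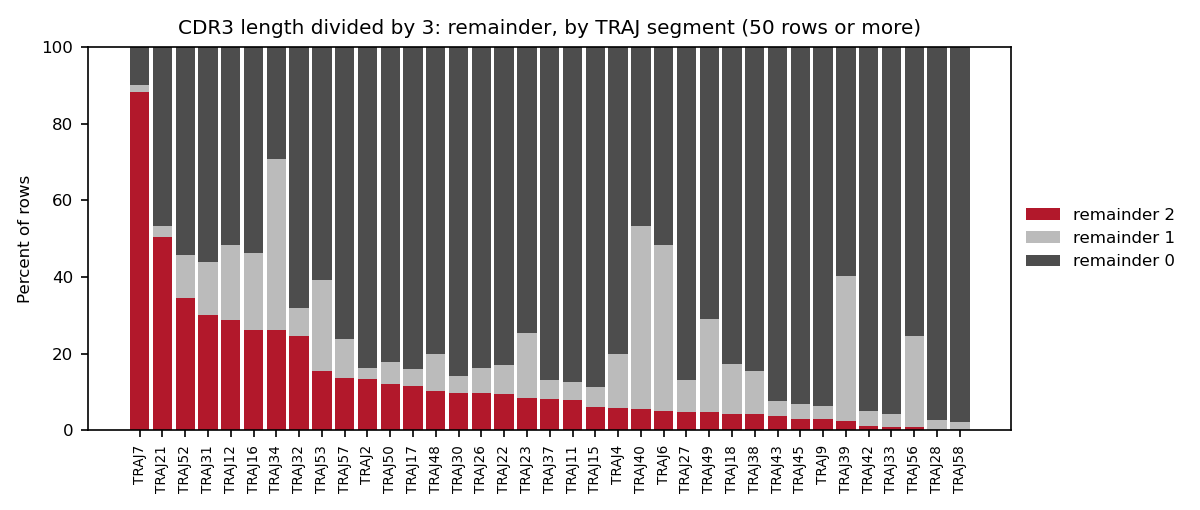
Percent of TRA rows (vertical axis) whose CDR3 length in bases leaves a remainder of 2, 1 or 0 after division by 3, for each of the 37 TRAJ segments with at least 50 rows (horizontal axis). TRAJ7, at the left, had a remainder of 2 in 88.2% of its rows, and the next segment, TRAJ21, in 50.3%.

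The amino acids went with the remainder. Of the rows with a remainder of 2, 385 (77.8%) had whole codons that ended in SNNRLT, and they held 99.7% of the reads with that remainder. Of the 56 rows with a remainder of 0, 35 (62.5%) ended in QQQTYF. Only 21 rows with a remainder of 2 held a stop or an unread codon, with 38 reads in all.

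A few rows in the other frame were large. The TRAV3-3 rearrangement printed last above, read as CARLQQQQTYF, had 1139 reads in KO tumor 2 and 384 reads in KO tumor 3. A WT TDLN 4 rearrangement with TRAV12-2 had 687 reads in that frame and held a stop codon. In KO tumor 2, 52.0% of the TRAJ7 reads had a remainder of 2. In WT tumor 2 it was 2 of 4 reads, and in the other 10 libraries it ranged over 85.8% to 100%. KO tumor 2 was thus the library of appreciable TRAJ7 depth in which both frames were about equally common.

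The TRAJ7 share of productive TRA reads varied strongly between libraries. In KO tumor 1, 2 and 3 it was 10.3%, 3.53% and 18.5%. In WT tumor 2, 3 and 4 it was 0.00211%, 0.0106% and 7.68%, the first of these being 2 reads and the second 6 reads. In KO TDLN 1, 2 and 3 it was 0.462%, 0.571% and 0.938%. In WT TDLN 1, 3 and 4 it was 6.46%, 15.8% and 80.2%. All 3 KO TDLN libraries were low and close together, whereas WT TDLN 4 was made up mostly of TRAJ7 reads. With receptor transcripts from bulk cells, fewer TRAJ7 cells and less receptor RNA per cell cannot be told apart.

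The 95% Wilson intervals were narrow beside these differences. They were 79.5% to 80.8% in WT TDLN 4, 18.1% to 18.8% in KO tumor 3, 0.848% to 1.04% in KO TDLN 3 and 0.000578% to 0.00769% in WT tumor 2. TRAJ7 was the first of 37 segments in WT TDLN 3 and the first of 33 in WT TDLN 4, and the 24th of 36 in KO TDLN 1. Over all 12 libraries its mean share of 12.03% put it at rank 2 among TRAJ segments, but this rested on WT TDLN 4. Without that library the mean was 5.84% and the rank 5.

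As group means, the read share was 10.8% ± 7.49 in KO tumor and 2.57% ± 4.43 in WT tumor (SD, n = 3 each). It was 0.657% ± 0.250 in KO TDLN and 34.1% ± 40.1 in WT TDLN (SD, n = 3 each). The order of the means was WT TDLN, KO tumor, WT tumor and KO TDLN, and each group overlapped the next in this order. KO minus WT was 8.20 percentage points in tumor, where the groups overlapped, and -33.5 in TDLN, where they did not. Tumor minus TDLN was 10.1 percentage points in KO, where the groups did not overlap, and -31.6 in WT, where they did.

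Of 43 TRAJ segments, 1 had a lower read share in every KO TDLN library than in every WT TDLN library (2.33%), and that 1 was TRAJ7, while 4 (9.3%) were higher in every KO TDLN library. In the same way, 1 of 43 segments (2.33%) was higher in every KO tumor library than in every KO TDLN library, again TRAJ7. In WT, 10 of 43 (23.3%) were lower in every tumor library than in every TDLN library, and TRAJ7 was not among them. Since TRAJ7 was chosen with its shares known, nothing is read from these counts. In the groups other than KO TDLN, a single library weighed heavily on the mean. Without WT TDLN 4 the WT TDLN mean was 11.1%, without WT tumor 4 the WT tumor mean was 0.00637%, and without KO tumor 3 the KO tumor mean was 6.91%.

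Shared clonotypes also weighed on it. With clonotypes found under more than 1 letter left out, the read share was 0.583%, 0.176% and 43.0% in KO tumor 1, 2 and 3. It was 5.12% in WT tumor 4, and in WT tumor 2 and WT tumor 3 no TRAJ7 read was left. It was 0.662%, 1.94% and 3.07% in KO TDLN 1, 2 and 3, and 13.7%, 0.537% and 81.3% in WT TDLN 1, 3 and 4. WT TDLN 3 was then below every KO TDLN library, and KO tumor 1 and KO tumor 2 were too, so neither separation noted above was kept by reads.

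**Figure D2:**
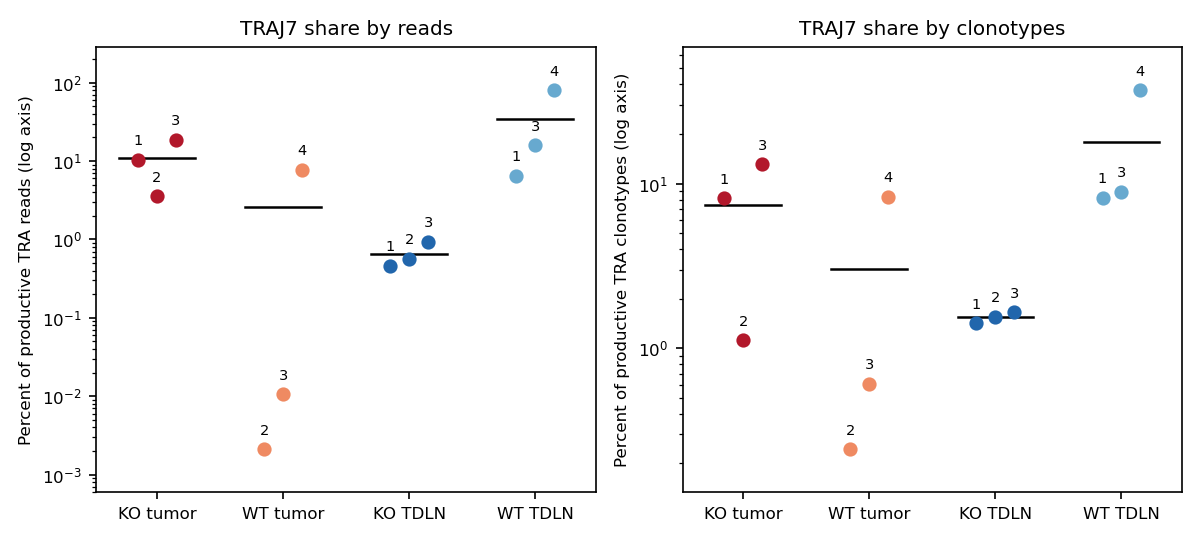
TRAJ7 share of productive TRA reads (left) and of productive TRA clonotypes (right), in percent on log axes, by group; each point is 1 library with its number and the line is the group mean. KO TDLN libraries lie between 0.462% and 0.938% of reads, below the 3 WT TDLN libraries at 6.46% to 80.2%.

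When each clonotype counted once, the spread was smaller, though a large clone still adds clonotypes through its 1-base variants, which made up 56.1% of the TRAJ7 clonotypes of WT TDLN 4 and 71.2% of those of WT TDLN 3. TRAJ7 made up 8.14%, 1.12% and 13.1% of the clonotypes of KO tumor 1, 2 and 3, against 0.243%, 0.610% and 8.28% in WT tumor 2, 3 and 4. It made up 1.41%, 1.55% and 1.66% in KO TDLN 1, 2 and 3, against 8.17%, 8.89% and 36.9% in WT TDLN 1, 3 and 4. TRAJ7 and 1 other segment of 43 (4.65%) were lower in every KO TDLN library than in every WT TDLN library on this measure, and 4 others (9.3%) were higher. This separation was narrower without small or variant clonotypes. It was 2.21% to 3.67% in KO TDLN against 3.91% to 13.8% in WT TDLN with clonotypes of at least 10 reads, and 1.67% to 2.56% against 5.20% to 23.4% without 1-base variants. Without clonotypes found under more than 1 letter it was 1.34% to 1.75% in KO TDLN against 6.73% to 38.5% in WT TDLN. Variants of the clonotypes left out still counted here, and WT TDLN 3 kept 49 TRAJ7 clonotypes with 107 reads. Variants and shared clonotypes were not left out together, so these values do not show the separation apart from the shared clones. The KO tumor and KO TDLN libraries overlapped by clonotypes, since KO tumor 2 held only 5 TRAJ7 clonotypes. The number of TRAJ7 clonotypes was 25, 5 and 75 in KO tumor, 1, 3 and 53 in WT tumor, 11, 13 and 12 in KO TDLN and 77, 73 and 82 in WT TDLN.

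Under the frame as deposited TRAJ7 was scarce in every group except KO tumor. The mean read share of TRAJ7 was then 1.41% in KO tumor and 0.00123% in WT tumor, and 0.0457% in KO TDLN and 0.0462% in WT TDLN. In KO tumor it came from KO tumor 2 (3.26%) and KO tumor 3 (0.981%), the libraries with the TRAV3-3 rearrangement. The KO TDLN and WT TDLN libraries overlapped in this frame. Over all rows, whatever the frame, the means in tumor were 10.6% in KO and 2.44% in WT, and those in TDLN were 0.599% in KO and 32.6% in WT.

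TRAJ7 reads were concentrated in few clones. Clonotypes were named where they took at least 1% of the productive TRA reads of a library or were found under at least 3 letters. There were 12 of these, numbered by their highest share, and they held 95.1% of the productive TRAJ7 reads. Of the 12, 11 passed the 1% rule, the lowest of them at 1.13%, and the highest share below it was 0.859%, for clone 12, which was named for its letters.

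The largest, clone 1, joined TRAV6-7 to TRAJ7 and encoded CALGDEG followed by YSNNRLTL. It had 12272 reads in WT TDLN 4, which was 77.5% of the productive TRA reads there (95% Wilson interval 76.9% to 78.2%) and 96.7% of its TRAJ7 reads. It was found in no other library. The high TRAJ7 share of WT TDLN 4 was therefore almost entirely this 1 rearrangement.

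Clone 2, with TRAV7-4, encoded CAASEEG followed by YSNNRLTL. It took 10.2% of KO tumor 3 (4952 reads) and 11.3% of WT TDLN 3 (5487 reads), and it had 3 reads in WT tumor 3. Clone 4, with TRAV6-7, encoded CALGGSG followed by YSNNRLTL and was found in the same 3 libraries. It took 5.36% of KO tumor 3 and 4.12% of WT TDLN 3, with 2 reads in WT tumor 3. KO tumor 3 and WT TDLN 3 differ in genotype, tissue and letter, and the 24 TRAJ7 clonotypes they shared held 84.8% of the TRAJ7 reads of KO tumor 3 and 98.6% of those of WT TDLN 3.

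Clones 5 and 8 were shared by WT tumor 4 and WT TDLN 1, which differ in letter. Clone 5, CALGRDYSNNRLTL with TRAV6-6, took 4.81% of WT tumor 4 and 0.604% of WT TDLN 1. Clone 8, CAASADSNNRLTL with TRAV14-3, took 1.63% of WT tumor 4 and 1.31% of WT TDLN 1, and had 1 read in KO TDLN 2. The 10 TRAJ7 clonotypes these libraries shared held 98.6% of the TRAJ7 reads of WT tumor 4 and 31.2% of those of WT TDLN 1.

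In KO tumor the leading clones were different in each library. Clone 3, with TRAV7-4, encoded CAVSEEG followed by YSNNRLTL and took 8.98% of KO tumor 1 (2123 reads), with 1 read in KO TDLN 3. Clone 10, CAVSEQG followed by YSNNRLTL with TRAV7-4, took 1.18% of KO tumor 1 and 0.478% of KO tumor 3. Clone 6, CSARPDYSNNRLTL with TRAV5-1, took 3.52% of KO tumor 2 and 0.582% of KO tumor 3, with 2 reads in WT tumor 2, the only TRAJ7 reads of that library. Clone 9, CAASDYSNNRLTL with TRAV7-2, took 1.62% of KO tumor 3 alone.

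The remaining named clones were in WT libraries or at low counts elsewhere. In WT TDLN 1, clone 7 (CALGEEG followed by YSNNRLTL, TRAV6-6) took 3.05% and clone 11 (CVLGEDYSNNRLTL, TRAV6-2) took 1.13%. Clone 12 took 0.859% of WT tumor 4 and 0.347% of WT TDLN 4, and had 2 reads in each of KO TDLN 2 and WT TDLN 1.

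No clonotype could be named at 1% of a KO TDLN library, since all TRAJ7 reads together were under 1% there. Clones named through other libraries or letters could still appear in KO TDLN, but few reads of them did. Clone 3 had 1 read in KO TDLN 3, and clones 8 and 12 had 1 and 2 reads in KO TDLN 2. The largest TRAJ7 clonotypes of KO TDLN fell outside the rule and were chosen after their values were seen. They were CALGSDYSNNRLTL with TRAV6-6 in KO TDLN 1 (68 reads), CAVSGGYSNNRLTL with TRAV3-3 in KO TDLN 2 (210 reads) and CAIDREYSNNRLTL with TRAV13-2 in KO TDLN 3 (227 reads). Each was found under 1 letter. They took 0.168%, 0.333% and 0.566% of the productive TRA reads of their libraries.

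**Figure D3:**
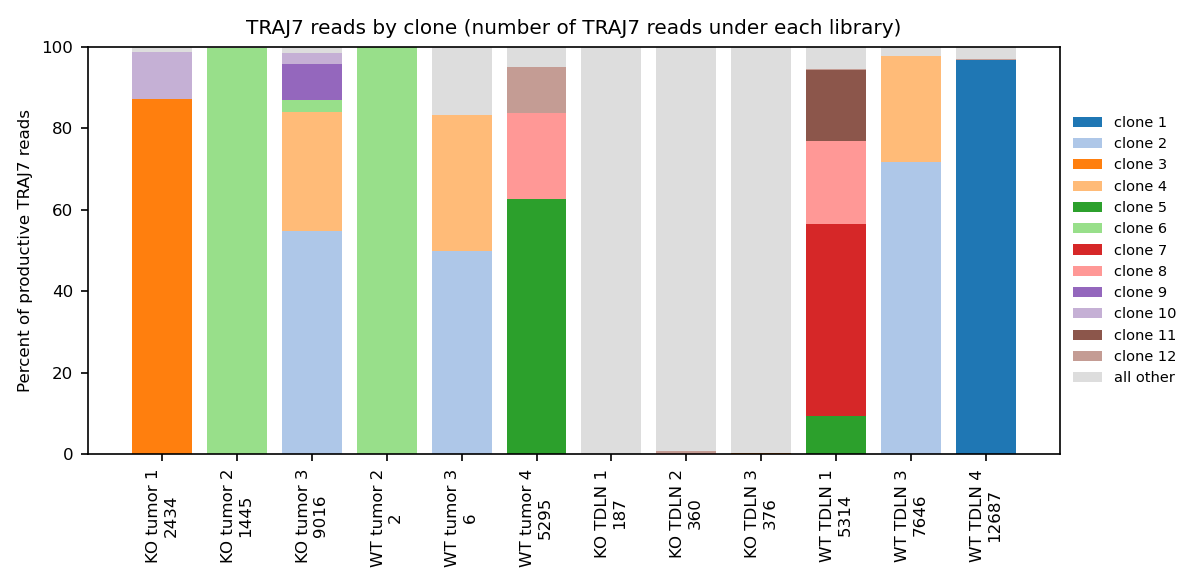
Productive TRAJ7 reads of each library (horizontal axis, with the number of TRAJ7 reads under its name) divided among the 12 named clones and all other clonotypes, in percent (vertical axis). Clone 1 fills 96.7% of WT TDLN 4, and clones 2 and 4 fill most of KO tumor 3 and WT TDLN 3. In KO TDLN no clonotype could be named at 1% of a library. Clones named through other libraries or letters could still appear there, but each held at most 0.556% of TRAJ7 reads, so those libraries are almost all grey.

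The largest clonotype held 87.2%, 99.7% and 54.9% of the TRAJ7 reads of KO tumor 1, 2 and 3, against 100%, 50% and 62.6% in WT tumor 2, 3 and 4. The value of WT tumor 2 is 1 clonotype of 2 reads and that of WT tumor 3 is 3 of 6 reads. The WT tumor mean and its contrasts below rest on them. It held 36.4%, 58.3% and 60.4% in KO TDLN 1, 2 and 3, against 47.3%, 71.8% and 96.7% in WT TDLN 1, 3 and 4. The effective number of clonotypes (inverse Simpson index, the number of equal clones that would give the same concentration) ranged from 1 in WT tumor 2 to 3.79 in KO TDLN 1. The mean top clone share was 80.6% ± 23.1 in KO tumor and 70.9% ± 26.0 in WT tumor, and 51.7% ± 13.3 in KO TDLN and 71.9% ± 24.7 in WT TDLN (SD, n = 3 each).

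No difference in top clone share passed the test. Exact two-sided permutation tests over libraries were used, and all 16 tests were adjusted together by Benjamini-Hochberg. KO minus WT was 9.72 percentage points in tumor (exact p = 0.8) and -20.2 in TDLN (exact p = 0.3). Tumor minus TDLN was 28.9 percentage points in KO (exact p = 0.3) and -1.04 in WT (exact p = 1). With 3 libraries against 3 the smallest p is 0.1, so these comparisons could not pass 0.05. With both strata together, where the smallest p is 0.005, KO minus WT was -5.26 (exact p = 0.705) and tumor minus TDLN was 13.9 (exact p = 0.32).

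The V partners of TRAJ7 were dominated by a pair of families. TRAV6 supplied 55.4% of productive TRAJ7 reads and 53.8% of TRAJ7 clonotypes, against 6.99% of reads and 8.81% of clonotypes of other TRAJ segments. TRAV7 supplied 33.1% of TRAJ7 reads and 31.5% of TRAJ7 clonotypes, against 24.8% and 25.4% of those of other TRAJ segments. TRAV14, TRAV5, TRAV3 and TRAV16 supplied 5.21%, 3.93%, 0.561% and 0.212% of TRAJ7 reads. In all, 11 families were joined to TRAJ7. These sums over libraries follow the large clones: TRAV6-7 alone held 38.7% of TRAJ7 reads, most of them clone 1 in WT TDLN 4.

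Between libraries the V partners varied widely. TRAV7 held 100% of the TRAJ7 reads of KO tumor 1 and 67.5% of those of KO tumor 3. TRAV5 held 100% of those of KO tumor 2. In WT tumor 4, TRAV6 held 63.9% and TRAV14 21.4%. The KO TDLN libraries had 3 different leading families, with TRAV16 at 50.8% in KO TDLN 1, TRAV3 at 59.7% in KO TDLN 2 and TRAV13, in the other families, leading KO TDLN 3. In WT TDLN the leading family was TRAV6 in WT TDLN 1 (75.6%) and WT TDLN 4 (99.2%) and TRAV7 in WT TDLN 3 (73.5%). Without clonotypes found under more than 1 letter the leading family was the same in the 10 libraries that kept TRAJ7 reads. TRAV7 was then at 97.5% in KO tumor 3, TRAV6 at 68.5% in WT tumor 4 and TRAV7 at 78.5% in WT TDLN 3. Few TRAJ7 reads were left in KO tumor 1 (30), KO tumor 2 (3), WT tumor 4 (73) and WT TDLN 3 (107). Variants of the clonotypes left out were kept, so the family of a large shared clone could persist through them.

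With 1-base variants left out, TRAV6 or TRAV7 made up 62.0% ± 39.4 of TRAJ7 clonotypes and 35.5% ± 17.0 of clonotypes of other TRAJ segments (SD, n = 12 libraries). A large clone can still count more than once here, since the same CDR3 under another V name was kept. The TRAJ7 value was higher in 9 of 12 libraries. The exceptions were KO tumor 2 and WT tumor 2, each with a single such TRAJ7 clonotype and that one with TRAV5, and KO TDLN 3, at 22.2% against 25.5%. This comparison is a description, because the V partners of TRAJ7 were known from its leading clones.

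**Figure D4:**
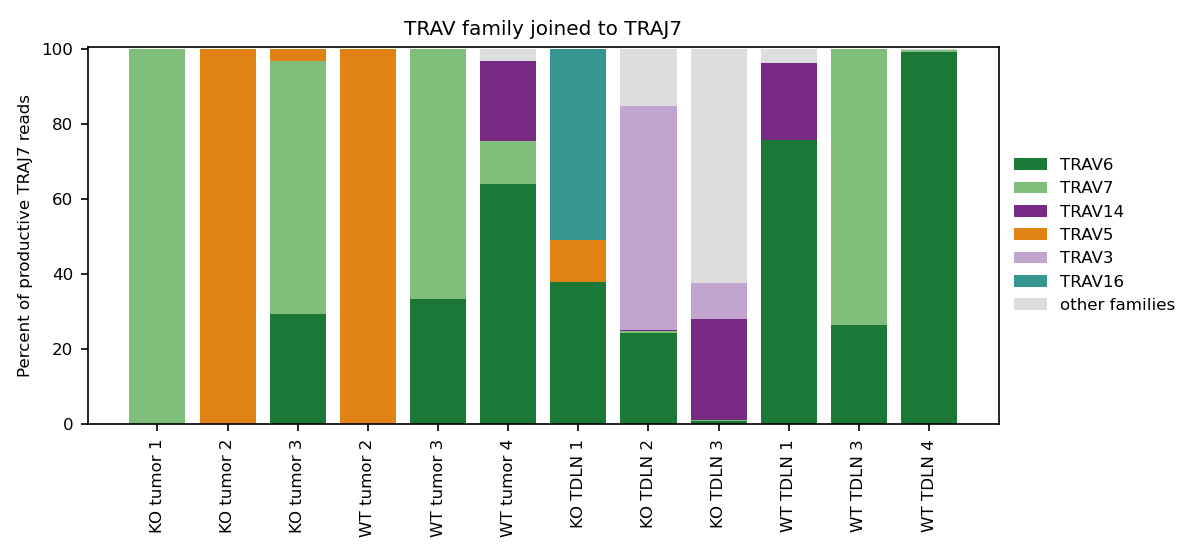
TRAV family joined to TRAJ7 in each library (horizontal axis), in percent of productive TRAJ7 reads (vertical axis), with the 6 most frequent families in colour and the others in grey. TRAV6 and TRAV7 together fill at least 75.4% of 7 libraries, TRAV5 fills KO tumor 2 and WT tumor 2, and KO TDLN libraries are led by TRAV16, TRAV3 and other families.

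Residues just before the shared end also recurred. Chains in which YSNNRLTL was kept whole and preceded by glycine (G) held 75.6% of productive TRAJ7 reads, and those in which it was preceded by aspartate (D) held 17.6%. Chains that had SNNRLTL without the tyrosine held 5.32%, and another residue stood before YSNNRLTL in 1.22%. The pair EG, glutamate then glycine, preceded YSNNRLTL in 63.5% of reads, through clones 1, 2, 3, 7 and 12 among the named ones. The glutamate, an acidic residue, and the glycine lie before the shared end printed in capitals above. Without the germline segment, it was not determined which of the residues before YSNNRLTL, D among them, come from TRAJ7 and which from the joint.

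EG was also found outside the named clones, though these clonotypes need not all be separate rearrangements. Of the 166 TRAJ7 clonotypes without 1-base variants, 39 (23.5%) had EG before YSNNRLTL. These were 19 with TRAV6, 19 with TRAV7 and 1 with TRAV1. Some carried the CDR3 of a large clone under another V name, as in KO tumor 1 for clone 3 under TRAV7-6 (3 reads) and TRAV7-2 (1 read). D before YSNNRLTL was found in another 39 (23.5%). In 53 (31.9%) the tail differed from SNNRLTL, but these held 0.275% of reads when counted over all clonotypes.

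The share of TRAJ7 reads with EG was 88.2% in KO tumor 1 and 55.9% in KO tumor 3. In KO tumor 2 it was 0 of 1445 reads, which allows a share of up to 0.208%. It was 66.7% of 6 reads in WT tumor 3, 11.4% in WT tumor 4, and 0 of the 2 reads of WT tumor 2, too few to set a limit. In KO TDLN it was 0 of 187 reads in KO TDLN 1, which allows up to 1.60%, then 0.556% in KO TDLN 2 and 0.266% in KO TDLN 3. In WT TDLN 1, 3 and 4 it was 48.1%, 72.6% and 98.9%. EG was thus rare in every KO TDLN library and common in every WT TDLN library, at 0.266% to 0.556% of TRAJ7 reads where it was found in KO TDLN, that is, at 1 or 2 reads. No test was made of this, because the motif was chosen from the clones that lead WT TDLN. Without clonotypes found under more than 1 letter, EG was at 76.7% of 30 reads in KO tumor 1 and 2.01% of 847 reads in KO tumor 3, against 13.7% of 73 reads in WT tumor 4. It was then in 0 of 187, 0 of 274 and 0 of 375 reads in KO TDLN 1, 2 and 3, which allows up to 1.60%, 1.09% and 0.800%. In WT TDLN 1, 3 and 4 it was then 69.8% of 3655 reads, 18.7% of 107 reads and 99.3% of 12573 reads. The few reads left in WT TDLN 3 can include 1-base variants of clone 2, which carries EG. With clonotypes as the count, EG was in 0 of 11, 1 of 8 and 1 of 9 clonotypes without variants in KO TDLN 1, 2 and 3, against 8 of 38, 5 of 21 and 15 of 36 in WT TDLN 1, 3 and 4. Such counts can hold a large clone more than once.

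Chains of 15 residues held 75.4% of productive TRAJ7 reads, chains of 14 held 16.4% and chains of 13 held 7.37%. The mean length over TRAJ7 clonotypes in tumor was 14.59 residues in KO and 14.34 in WT, and in TDLN it was 14.13 in KO and 14.71 in WT. None of the 6 contrasts of length passed the exact permutation test. KO minus WT was 0.25 residues in tumor (exact p = 1), -0.58 in TDLN (exact p = 0.2) and -0.16 over both tissues (exact p = 0.61). Tumor minus TDLN was 0.46 in KO (exact p = 0.2), -0.37 in WT (exact p = 0.4) and, with genotype as stratum, 0.04 in all (exact p = 0.815). Within libraries, TRAJ7 clonotypes averaged 14.44 residues and those of other TRAJ segments 14.60, a difference of -0.16 (exact sign-flip permutation test over 12 libraries, p = 0.467, lower in 6 of 12).

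Recurrence was followed by letter. Of the 381 TRAJ7 clonotypes, 41 (10.8%) were found under at least 2 letters, against 471 of 6141 (7.67%) of other TRAJ segments. With 1-base variants left out these were 13 of 166 (7.83%) and 151 of 3136 (4.82%). Within libraries, 34.1% of TRAJ7 clonotypes and 16.7% of other clonotypes were also found under another letter. The difference was 17.4 percentage points, higher in 8 of 12 libraries, and did not pass the test (exact sign-flip permutation p = 0.0874, adjusted p = 0.699). A shared clonotype counts in each library that holds it, so the 12 differences are not independent, as the test takes them to be. WT tumor 2 and WT tumor 3, with 1 and 3 TRAJ7 clonotypes, were both at 100%. In the 9 libraries with at least 10 TRAJ7 clonotypes, a restriction made after seeing the data, the difference was 1.60 (exact p = 0.699).

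**Figure D5:**
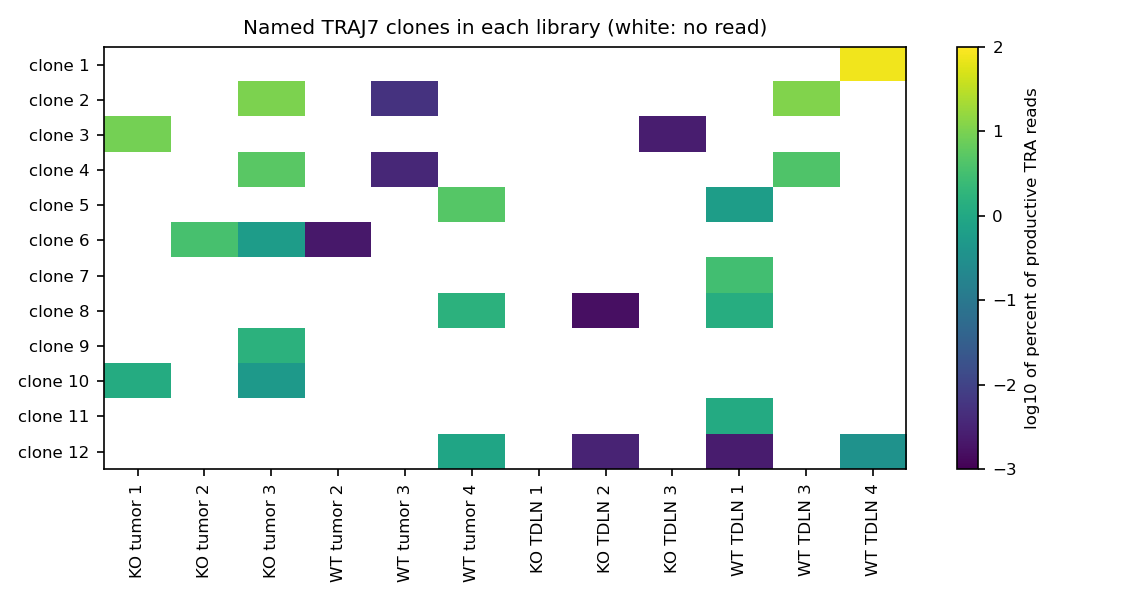
The 12 named TRAJ7 clones (rows) in the 12 libraries (columns), coloured by log10 of the percent of productive TRA reads, with white where no read was listed. Clones 2 and 4 are found in KO tumor 3, WT tumor 3 and WT TDLN 3, and clones 5 and 8 in WT tumor 4 and WT TDLN 1. Clone 8 also has 1 read in KO TDLN 2, and clone 1 is in WT TDLN 4 alone.

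TRAJ7 clonotypes were shared by 14 of 66 pairs of libraries, and by 2 of the 6 pairs with the same letter. Those were WT tumor 3 and WT TDLN 3, with 3 shared clonotypes, and WT tumor 4 and WT TDLN 4, with 2. Sharing at 10 reads or more on both sides was found in 6 pairs, of which 1 had the same letter. KO tumor 2 and KO tumor 3 shared 3 TRAJ7 clonotypes, clone 6 among them.

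By amino acids, 1 of 247 TRAJ7 chains was found under all 6 letters, as was 1 of 4302 chains of other TRAJ segments. It was CAVSEEG followed by YSNNRLTL, the chain of clones 3 and 12, in 7 libraries and encoded by 8 nucleotide sequences, 2 of which were never a 1-base variant of a larger clonotype. Those were the sequences of clones 3 and 12 printed above, which differ in bases before the shared end while the encoded residues are the same. The chain took 9.04% of KO tumor 1, 0.865% of WT tumor 4 and 0.347% of WT TDLN 4. In the other 4 libraries it had 1 to 10 reads, with 2 in KO TDLN 2, 1 in KO TDLN 3, 2 in WT TDLN 1 and 10 in WT TDLN 3. The 10 reads in WT TDLN 3 were a 1-base variant of a larger clonotype there, and with such variants left out the chain was found under 5 letters, in 6 libraries.

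The shares of small clonotypes in TRAJ7 did not pass the test either. Clonotypes seen as 1 read made up 52.8% of TRAJ7 clonotypes and 65.2% of others within libraries, a difference of -12.4 percentage points (exact sign-flip permutation p = 0.0825, adjusted p = 0.699, lower in 9 of 12 libraries). Clonotypes 1 base from one at least 100 times larger made up 42.3% and 49.4%, a difference of -7.11 (exact p = 0.439, lower in 6 of 12). The largest TRAJ7 clonotype had 2 reads in WT tumor 2, 3 in WT tumor 3 and 68 in KO TDLN 1. None there could be 100 times larger than another TRAJ7 clonotype. A TRAJ7 variant there would have needed a large clonotype of another TRAJ segment. The TRAJ7 value was 0 in these libraries, against 50.2%, 57.5% and 45.5% of other clonotypes, which lowers the mean difference. Of all 16 tests, 0 had an unadjusted p under 0.05 and the smallest adjusted p was 0.699.

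The TRAJ segments whose read share over the 12 libraries was most like that of TRAJ7, of 42 compared, were TRAJ49 (Spearman rho = 0.47), TRAJ57 (0.44) and TRAJ45 (0.43). These are descriptions over libraries that share clonotypes and whose shares sum to a whole.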

How the data were processed

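T cell receptor transcripts were measured in 12 libraries. TCR-specific primers were used on polyA RNA, per the labels' protocols, and the submitters' processing notes name the build GRCm39. Per the file headers, the TRA table is a TRUST4 report, of a version the sources used here do not give. Its deposited count is the number of reads of 1 rearrangement in 1 library, and a second column of the authors holds it as a fraction of that library's TRA reads. Counts were used as deposited. The fraction was used only as a check and differed from reads over the TRA reads of the library by at most 0.00200. WT tumor 2 carries the number 1 in those tables, and its library name was used to match it.

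Shares, clonotypes and tests were computed in Python 3.11.15 with numpy 2.4.6, pandas 2.3.3 and scipy 1.17.1, and figures were drawn with matplotlib 3.10.9. Rows without a whole frame, with a stop or with an unread base were left out, except for the TRAJ7 frame rule. Traj7 was located by name in the RefSeq table of GRCm38.p6, and no coordinates were used. TRAJ7, its frame rule, the lists and the tests were chosen with earlier results of these data known. The rule for named items took clonotypes at 1% or more of a library or under 3 or more letters, the 6 TRAV families with most TRAJ7 clonotypes and the 3 segments most like TRAJ7 in read share, among those at 0.1% or more in some library. Tests were exact two-sided permutation tests over libraries, within genotype or tissue, and sign-flip tests within libraries. The permutation test function was tested on simulated data, and the sign-flip function was not. Alternatives were the deposited frame, V copies not pooled, at least 10 reads, 1-base variants or shared clonotypes left out, all rows, lengths weighted by reads, and leaving out each library. Of the 5 tumor and TDLN pairs with the same number, correlations of segment shares ranged over -0.183 to 0.179. Pairs with different numbers ranged over -0.400 to 0.442, so these correlations cannot show whether same-numbered libraries belong together. The main tests of tumor minus TDLN took neither the numbers nor the letters as pairs.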

Additional observations from a re-analysis of the deposited data

How the results depend on the processing

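No test passed its threshold at the main settings or, after adjustment, under any alternative run. The smallest adjusted p over alternatives was 0.125, for the variant difference under the frame as deposited (-34.3 percentage points, exact permutation p = 0.00781 before adjustment). In that frame WT tumor 2 and WT tumor 4 held 2 and 1 TRAJ7 reads, and KO TDLN 2 and KO TDLN 3 held 45 and 26. WT TDLN 1, 3 and 4 held 5, 2 and 4. With so few reads no TRAJ7 clonotype there could count as a variant of another TRAJ7 clonotype. Only a large clonotype of another TRAJ segment could make it one. The definition thus tends to lower the difference in advance, and nothing is read from this p. The single-read difference without WT TDLN 4 was the other value with an unadjusted p under 0.05 (exact permutation p = 0.0225, adjusted p = 0.359). Under the deposited frame the TRAJ7 read share was 1.41% in KO tumor and 0.0457% in KO TDLN, and the clonotype share 1.18%, 0.254% and 1.21% in KO tumor, KO TDLN and WT TDLN. Tumor minus TDLN in length was -1.85 over both genotypes and -2.13 in KO, and KO minus WT in tumor was -1.50. Tumor minus TDLN in top clone share was -2.11 in KO and 43.3 in WT, and KO minus WT was 39.2 over both tissues and 62.0 in TDLN. The recurrence difference was -1.15 and that of single reads 17.6. These rows are not the ones read in the repaired frame.

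With at least 10 reads the clonotype share was 2.92% in KO TDLN and 7.77% in WT TDLN, and length differed by -0.21 (tumor minus TDLN) and 0.56 (KO minus WT) over both strata. Without 1-base variants it was 2.16% in KO TDLN and 11.9% in WT TDLN. Without shared clonotypes the KO TDLN read share was 1.89%, tumor minus TDLN in length was -0.064 over both genotypes, in top clone share -28.8 over both, -0.0896 in KO and -57.6 in WT, KO minus WT was 18.1 over both tissues and 46.8 in tumor, where 1 WT tumor library was left, and the variant difference was 6.03. In libraries with at least 10 TRAJ7 clonotypes, added after seeing the data, KO minus WT in length was 0.15 and the variant difference 0.379. The cause was not tested. V copies, lengths weighted by reads and the share over all rows changed no direction.

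Leaving out each library gave these ranges. The read share was 6.91% to 14.4% in KO tumor, 0.00637% to 3.85% in WT tumor, 0.516% to 0.754% in KO TDLN and 11.1% to 48.0% in WT TDLN. The clonotype share was 4.63% to 10.6%, 0.427% to 4.45%, 1.48% to 1.60% and 8.53% to 22.9% in the same order. Length, KO minus WT, was -0.87 to -0.39 in TDLN, 0.05 to 0.58 in tumor and -0.31 to 0.0022 over both. Length, tumor minus TDLN, was 0.25 to 0.75 in KO, -0.70 to -0.20 in WT and -0.12 to 0.19 over both. Top clone share, KO minus WT, was -32.6 to -7.83 in TDLN, -0.722 to 24.3 in tumor and -11.4 to 2.02 over both. Top clone share, tumor minus TDLN, was 19.4 to 41.7 in KO, -15.6 to 11.4 in WT and 6.66 to 20.4 over both. TRAJ7 minus other was -0.25 to -0.06 in length, 11.4 to 19.9 in recurrence, -14.6 to -7.66 in single reads and -11.4 to -2.53 in variants.

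With the replicate block over the 5 same-numbered pairs, tumor minus TDLN in length was 0.10 over both genotypes, 0.46 in KO and -0.45 in WT, and in top clone share 6.18, 28.9 and -27.9. With 5 pairs the smallest p is 0.0625. WT tumor 2 and WT tumor 3 had 2 and 6 TRAJ7 reads, so their clone sizes and motifs rest on almost no depth.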
